A study of Mus musculus with 6 samples.

Results

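The genes described here are neuronal transcription factors that a repressor such as GFI1 could hold down, together with Gata3, a factor of the developing inner ear. Of the 7 members named (Scrt1, Gata3, Isl1, Prox1, Pou4f1, Neurod1 and Insm1), 4 had a row among the 14865 genes of the table analysed. Scrt1, Gata3, Isl1 and Prox1 all passed the minimum for testing, which 14455 genes passed, while Pou4f1, Neurod1 and Insm1 had no row in the table analysed and are not described further by value. The members were chosen by name with their genotype difference in these libraries already known, so that difference is given below as a description with no test. RNA came from cochlear ducts of C57BL/6 mice at postnatal day 8 (P8), from 3 libraries of wild-type Gfi1+/+ mice and 3 libraries of Gfi1cre/+ mice. In Gfi1cre/+ mice 1 copy of Gfi1 is a knock-in in which Cre recombinase takes the place of most of the gene, so these animals carry both Cre and a single working copy. The paper reports recombination by this allele in hair cells but also in immune cells of the inner ear. It cautions that the immune cells need not have expressed the allele when analysed. No group carried Cre without the loss of a Gfi1 copy. Each Gfi1+/+ library held RNA of 2 cochleae from 1 mouse, and each Gfi1cre/+ library held RNA of 6 cochleae pooled from 3 mice, so the replicates of the 2 genotypes do not average over the same number of animals. The comparison asks whether these factors were higher in cochleae with 1 working Gfi1 copy, or whether their levels followed the amount of nerve in each library, read from Nefm, the medium neurofilament chain of axons.

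Sound reaches the brain through spiral ganglion neurons, whose cell bodies lie beside the cochlear duct and whose fibres enter it to contact hair cells (HCs). GFI1 is a zinc finger repressor that HCs need to mature and survive, and it recruits histone demethylase complexes through a short stretch at its N terminus, the SNAG domain. Scrt1 (Scratch) and Insm1 are neuronal zinc finger repressors that carry a SNAG domain of their own. Isl1 is a LIM-homeodomain factor of sensory neurons, Pou4f1 a POU-domain factor of the same cells, Neurod1 a basic helix-loop-helix factor that young inner ear neurons need, Prox1 a homeodomain factor of neurons, of some supporting cells and of lymphatic vessels, and Gata3 a zinc finger activator needed across the inner ear, in its neurons, HCs and supporting cells.

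The first 60 coding bases of Gfi1, Scrt1 and Scrt2 are printed here because the SNAG domain is what the repressors among the members share with the targeted gene. They were read 5′ to 3′ from the GENCODE transcripts of GRCm38, and capitals mark codons that encode the same residue as the codon at that place in Gfi1 (for Gfi1 itself, the same residue as in Scrt1).
Gfi1: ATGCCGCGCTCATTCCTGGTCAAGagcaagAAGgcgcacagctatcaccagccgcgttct
Scrt1: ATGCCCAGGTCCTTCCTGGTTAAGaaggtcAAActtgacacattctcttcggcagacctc
Scrt2: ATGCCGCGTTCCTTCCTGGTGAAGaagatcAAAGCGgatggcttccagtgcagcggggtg
Over the 20 codons compared, Scrt1 encoded the same residue as Gfi1 in 9, the first 8 of them in an unbroken run from the start codon, although only 28 of the 60 bases were identical. Scrt2, the paralogue of Scrt1, shared 10 residues and the same run of 8. Gata3 and Prox1 shared 2 residues each and Isl1 shared 3, with runs of 1, 2 and 1 from the start codon. 

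Whole reads could be recovered from the deposited values, and they came to between 13603908 and 19359753 per library. A count of 0 allowed up to 3 reads, or between 2.61 and 3.70 normalized reads, and this limit and the intervals below cover counting error only. With limma on log2(normalized reads + 1), 4 of the 14455 genes, or 0.0277%, passed an adjusted p of 0.05, and all 4 were Y-linked genes higher in Gfi1cre/+. For every difference below, effects of sex and of genotype cannot be told apart. Gfi1 had 147, 160 and 152 normalized reads in the Gfi1+/+ libraries and 136, 130 and 139 in the Gfi1cre/+ libraries, a ratio of means of 0.880, but exons that the knock-in leaves in place still add reads, so this level does not check the genotype labels. Gfi1+/+ replicate 1 stood apart from the other libraries. It scored -44.0 on the first principal component, which held 54.3% of the variance, against -0.30 to 16.2 elsewhere. Of 16 markers of central nervous tissue, 11 had a row, and their summed level was 5471 normalized reads in this library, against 3944 and 4081 in the other Gfi1+/+ libraries and 3894 to 4135 in the Gfi1cre/+ libraries. Mog, a myelin protein of oligodendrocytes, had 232 normalized reads there and 0 to 3.55 elsewhere, and Slc6a5, a glycine transporter of brainstem neurons, had 115 there and 0 to 2.61 elsewhere. Not every marker of the list was raised: Zic2 was lowest in this library, at 1965 normalized reads against 2262 to 2584 elsewhere. Cbln3 had 81.5 there and 41.9 to 82.55 elsewhere. Markers of HCs (23 of 24), supporting cells (18 of 20) and Schwann cells (14 of 14) had rows, so markers of the labelled tissue were present. The members are therefore given with and without Gfi1+/+ replicate 1.

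Scrt1 (ENSMUSG00000048385, chr15:76516203-76522499 on the minus strand of GRCm38) was the member with the largest difference between the genotypes. Its normalized reads were 81.5 in Gfi1+/+ replicate 1, 68.1 in replicate 2 and 31.6 in replicate 3. In the Gfi1cre/+ libraries it had 14.8, 25.7 and 25.5. All Gfi1cre/+ libraries lay below all Gfi1+/+ libraries, yet the lowest Gfi1+/+ library was closer to the Gfi1cre/+ libraries than to the other Gfi1+/+ libraries. These values rest on few reads, between 17 and 66 per library. The Poisson 95% interval of Gfi1+/+ replicate 3, 21.4 to 45.2 normalized reads, overlapped those of all Gfi1cre/+ libraries. These were 8.62 to 23.7 in replicate 1, 17.2 to 37.0 in replicate 2 and 16.8 to 37.1 in replicate 3. The intervals of Gfi1+/+ replicate 1 (63 to 103.6) and replicate 2 (52.5 to 86.7) overlapped none of the Gfi1cre/+ intervals. The means were 60.4 ± 25.8 in Gfi1+/+ and 22.0 ± 6.24 in Gfi1cre/+ (SD, n = 3 each), and the log2 difference, Gfi1cre/+ minus Gfi1+/+, was -1.35 (SE 0.386). In bulk RNA, fewer cells of a type and less RNA per cell cannot be told apart.

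**Figure D1:**
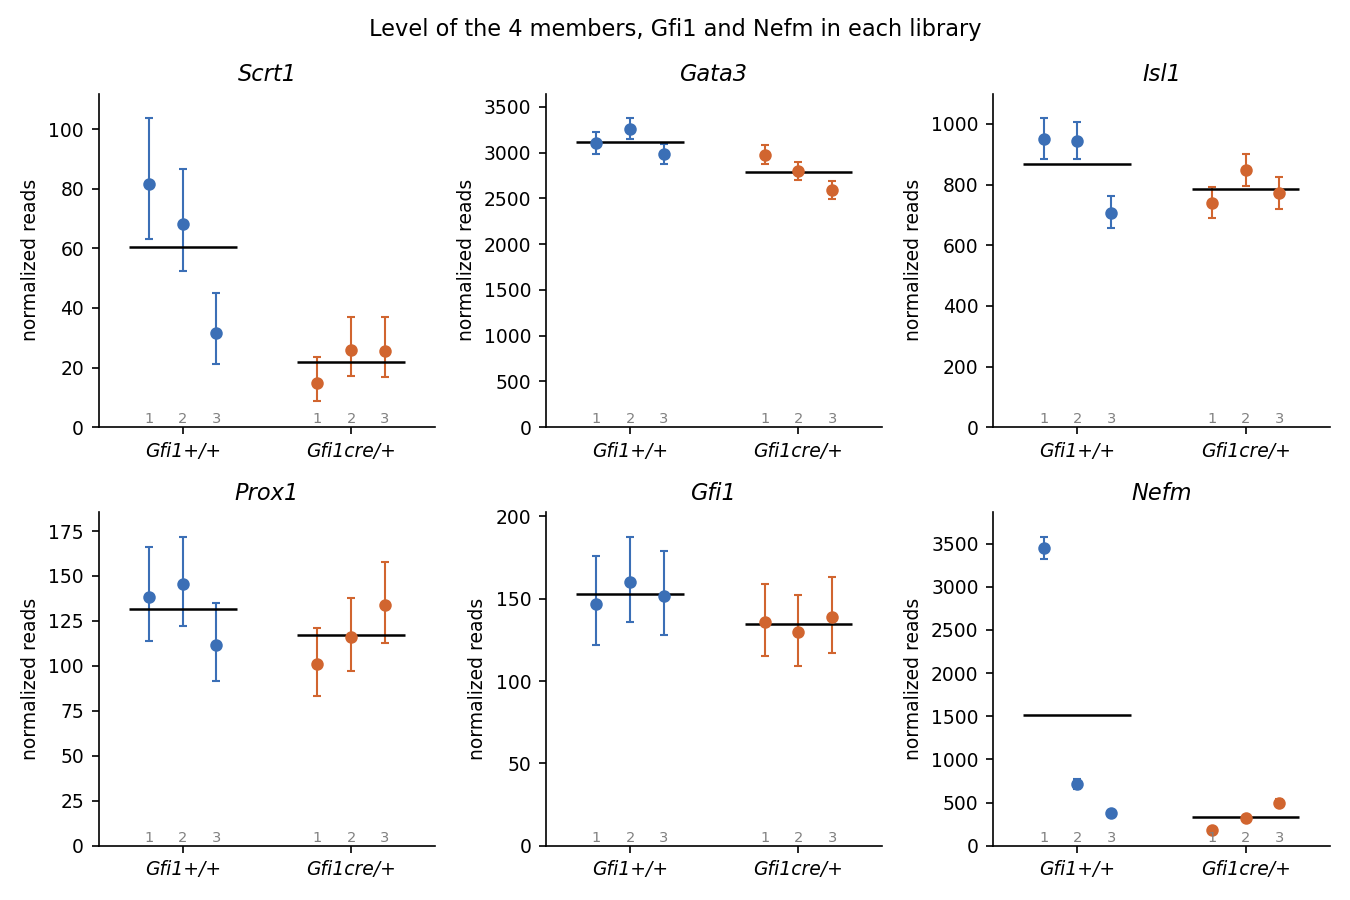
Normalized reads (y axes, linear from 0) of the 4 members, Gfi1 and Nefm in each of the 6 libraries (points, numbered by replicate) by genotype (x axes), with the mean (line) and the Poisson 95% interval of each count (bars). Scrt1 ran from 14.8 to 25.7 in Gfi1cre/+ and from 31.6 to 81.5 in Gfi1+/+, while Isl1 and Prox1 overlapped and Nefm was highest, at 3449, in Gfi1+/+ replicate 1.

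Of the members, Scrt1 had the highest Pearson r to Nefm over the libraries. Nefm had 3449, 712 and 378 normalized reads in the Gfi1+/+ libraries and 178, 315 and 499 in the Gfi1cre/+ libraries, with overlapping genotypes and a log2 difference of -1.68 (SE 0.695, limma adjusted p = 0.999). The library lowest in Nefm, Gfi1cre/+ replicate 1, was also the lowest in Scrt1, and the library highest in Nefm was the highest in Scrt1. In between the orders differed, since Gfi1cre/+ replicate 3 had more Nefm than Gfi1+/+ replicate 3 but less Scrt1. Across the 6 libraries the log2 levels of Scrt1 and Nefm had a Pearson r of 0.89 and a Spearman rho of 0.83, which placed Nefm at rank 191 of 13918 genes by likeness to Scrt1. Without the libraries farthest from the Nefm median, Gfi1+/+ replicate 1 and Gfi1cre/+ replicate 1, r was 0.81 over 4 libraries. Within genotypes, as deviations from the genotype means, r was 0.84. The points of all these correlations share their libraries, depths and size factors, and n = 6, so they are descriptions only.

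Scrt1 can also be set against single nerve genes. For every 100 normalized reads of Nefm there were 2.36, 9.56 and 8.38 of Scrt1 in the Gfi1+/+ libraries. In the Gfi1cre/+ libraries there were 8.30, 8.17 and 5.10. The lowest of the 6 values was that of Gfi1+/+ replicate 1, in which Nefm was 19.3 times its lowest level and Scrt1 5.50 times its own, and through this library the genotypes overlapped. In the other 5 libraries the Gfi1cre/+ values were lower, but the nearest pair, 8.38 and 8.30, was close. Set against Tubb3, a tubulin of neurons chosen after its values were seen, the ranges of all 6 libraries were apart. For every 100 normalized reads of Tubb3 there were 5.55, 8.41 and 5.67 of Scrt1 in Gfi1+/+. In Gfi1cre/+ there were 2.74, 4.18 and 4.12. Tubb3 varied less than Nefm, from 540 to 1469 normalized reads. Against Ina, Nefh, Snap25 or Syn1, neuron genes described below, the genotypes overlapped, as they did against Nefm. With the log2 level of Nefm as a covariate in the fit, the log2 difference of Scrt1 was -0.70 (SE 0.351), and with the mean level of the list of neuron genes as the covariate it was -0.71 (SE 0.339). Without Gfi1+/+ replicate 1 it was -1.09 (SE 0.387), and without that library and with Nefm as the covariate it was -0.55 (SE 0.356). The log2 difference of Scrt1 was negative in all of these fits.

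**Figure D2:**
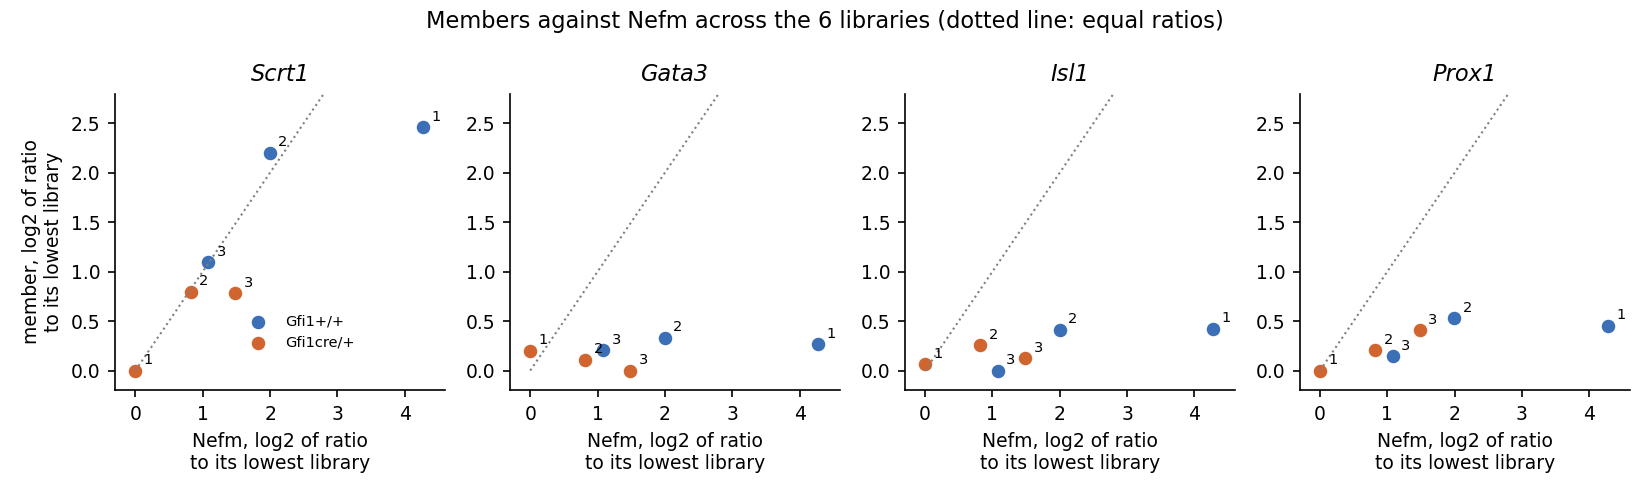
Log2 of the ratio of each member to its lowest library (y axis) against the same quantity for Nefm (x axis), for the 6 libraries (points, numbered by replicate and coloured by genotype); the dotted line marks equal ratios. Scrt1 lies near the line in the 3 libraries where Nefm is lowest and somewhat above it in Gfi1+/+ replicate 2. It falls below the line in Gfi1+/+ replicate 1 and in Gfi1cre/+ replicate 3, whereas Gata3 is nearly flat.

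As a list, the markers of central nervous tissue were highest in Gfi1+/+ replicate 1, the library with the most Scrt1 and Nefm. In Gfi1+/+ replicate 2, where Scrt1 had 68.1 normalized reads, Mog and Slc6a5 were both at 0 and the list of 11 markers scored -0.63, the mean over its genes of the log2 level less the gene's mean over libraries. In Gfi1+/+ replicate 1, with 81.5 normalized reads of Scrt1, the list scored 2.23. In the remaining libraries it scored between -0.61 and -0.17. Over the 6 libraries the median r with these 11 markers was 0.47 for Scrt1, 0.54 for Isl1, 0.29 for Gata3 and 0.22 for Prox1. Apart from the fits without Gfi1+/+ replicate 1, the part of central nervous tissue in the differences of the members was not tested.

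**Figure D3:**
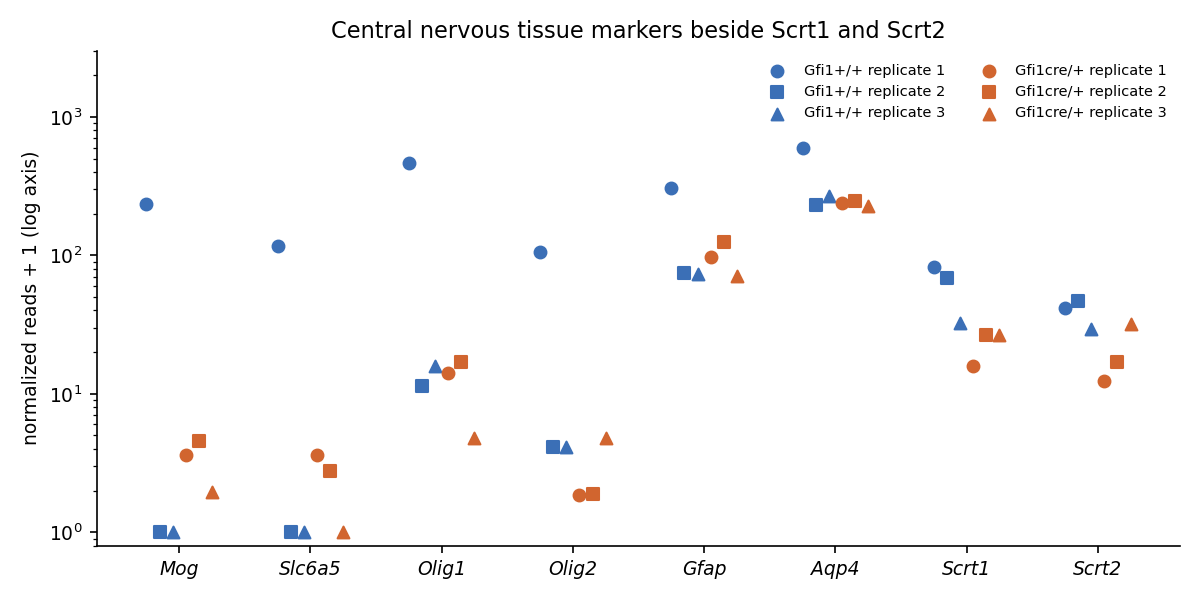
Normalized reads + 1 (log y axis) of 6 markers of central nervous tissue and of Scrt1 and Scrt2 (x axis) in each library (shape for the replicate, colour for the genotype). Mog, Slc6a5, Olig1 and Olig2 are high in Gfi1+/+ replicate 1 alone, at 232, 115, 460 and 105 normalized reads, while Scrt1 and Scrt2 are also high in Gfi1+/+ replicate 2.

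The paralogue Scrt2, which is not a member, had 40.7, 46.1 and 28.5 normalized reads in the Gfi1+/+ libraries and 11.3, 16.0 and 31.1 in the Gfi1cre/+ libraries. Its genotypes overlapped through Gfi1cre/+ replicate 3, and its log2 difference of -1.04 (SE 0.402) did not pass limma's test after adjustment (adjusted p = 0.999). Scrt1 and Scrt2 had an r of 0.88 over the 6 libraries. Summed, the pair had 122.2, 114 and 60.1 normalized reads in Gfi1+/+ and 26.1, 41.7 and 56.6 in Gfi1cre/+, so the lowest Gfi1+/+ library and the highest Gfi1cre/+ library were close. Of the other SNAG repressors listed, Snai1, Snai2, Snai3 and Ovol2, zinc finger repressors of epithelia and mesenchyme, had log2 differences of 0.04, 0.08, 0.05 and 0.05, each smaller than its SE (0.122, 0.138, 0.302 and 0.121). Gfi1b, Insm2 and Ovol1 had no row in the table analysed. Of the 6 SNAG genes tested, 2 were lower and 4 higher in Gfi1cre/+, with a median log2 difference of 0.04 beside -0.00 over all genes tested. The lower genes were Scrt2 and the targeted gene Gfi1 itself (-0.18). With Nefm as a covariate the median was -0.07, and with the neuron list score it was -0.08.

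Isl1 (ENSMUSG00000042258, chr13:116298281-116309689, minus strand) had 949, 943 and 708 normalized reads in the Gfi1+/+ libraries and 739, 847 and 771 in the Gfi1cre/+ libraries. The genotypes overlapped, because Gfi1+/+ replicate 3 was the lowest of all 6 libraries. The means were 867 ± 138 in Gfi1+/+ and 786 ± 55.4 in Gfi1cre/+ (SD, n = 3 each), with a log2 difference of -0.13 (SE 0.113). That difference was close to its SE, and single libraries moved it: it was -0.27 without Gfi1+/+ replicate 3, when the ranges no longer overlapped, and -0.06 without Gfi1+/+ replicate 1 or without Gfi1+/+ replicate 2. With Nefm as a covariate it was 0.03 (SE 0.119) and with the neuron list score 0.05 (SE 0.109), so its sign changed when nerve content was in the fit. Isl1 and Nefm had an r of 0.73 and a rho of 0.71 over the 6 libraries, with r = 0.67 within genotypes.

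Prox1 (ENSMUSG00000010175, chr1:190118035-190170714, minus strand) had 138, 146 and 112 normalized reads in the Gfi1+/+ libraries. It had 101, 116 and 134 in the Gfi1cre/+ libraries. The genotypes overlapped, and in each of them the library lowest in Nefm was the lowest in Prox1. The means were 132 ± 17.7 and 117 ± 16.5 (SD, n = 3 each), with a log2 difference of -0.17 (SE 0.148). It was -0.28 without Gfi1+/+ replicate 3, when the ranges were apart, -0.13 (SE 0.168) without Gfi1+/+ replicate 1, -0.27 without Gfi1cre/+ replicate 3 and -0.07 without Gfi1cre/+ replicate 1. With Nefm as a covariate it was 0.01 (SE 0.171), and with the neuron list score -0.01 (SE 0.170). Prox1 and Nefm had an r of 0.75 and a rho of 0.89, and r was 0.93 over the 4 libraries left without the ones farthest from the Nefm median. Markers of lymphatic endothelium, another site of Prox1, had 4 genes tested of 7 listed, with 1 higher and 3 lower in Gfi1cre/+ and a median log2 difference of -0.17, which came to within 0.01 of 0 without Gfi1cre/+ replicate 1 or with either nerve covariate over the 6 libraries. Antisense genes (Gm28172 and Prox1os) overlap 133 exon bases of Prox1, and the strand setting of the counting was not given in the sources used here, so their reads cannot be told apart there.

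Gata3 (ENSMUSG00000015619, chr2:9857078-9890034, minus strand) was the most abundant member and the one least tied to Nefm. It had 3106, 3259 and 2981 normalized reads in the Gfi1+/+ libraries and 2977, 2794 and 2587 in the Gfi1cre/+ libraries. All Gfi1cre/+ libraries were below all Gfi1+/+ libraries, but the nearest pair, Gfi1+/+ replicate 3 and Gfi1cre/+ replicate 1, had Poisson 95% intervals of 2872 to 3093 and 2878 to 3078, which overlapped almost entirely. The means were 3115 ± 139 and 2786 ± 195 (SD, n = 3 each), with a log2 difference of -0.16 (SE 0.0660). The ranges overlapped under quantile normalization and under TMM size factors, so their separation rested on the scaling of the libraries. With Nefm as a covariate the log2 difference was -0.19 (SE 0.0855), and without Gfi1+/+ replicate 1 it was -0.16 (SE 0.0746). Leaving out 1 library at a time gave between -0.21 and -0.11. Gata3 and Nefm had an r of 0.36 and a rho of 0.54 over the 6 libraries, and within genotypes r was -0.23. Genes on both strands overlap 232 exon bases of Gata3.

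All 4 members were thus lower in Gfi1cre/+ in the fit with genotype alone. Ranges were apart in 2 of the 4, where 4.07% of all genes tested were apart and lower and 3.45% apart and higher; since the members were chosen with this contrast known, nothing is read from the count. With nerve content in the fit, Scrt1 kept a negative difference of smaller size and Gata3 kept nearly the same difference. The differences of Isl1 and Prox1 came to within 0.05 of 0 with either covariate over the 6 libraries. Those shifts of Isl1 and Prox1 were smaller than their SDs within genotypes, 0.185 and 0.201 in log2. They cannot be told apart from the spread between libraries.

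**Figure D4:**
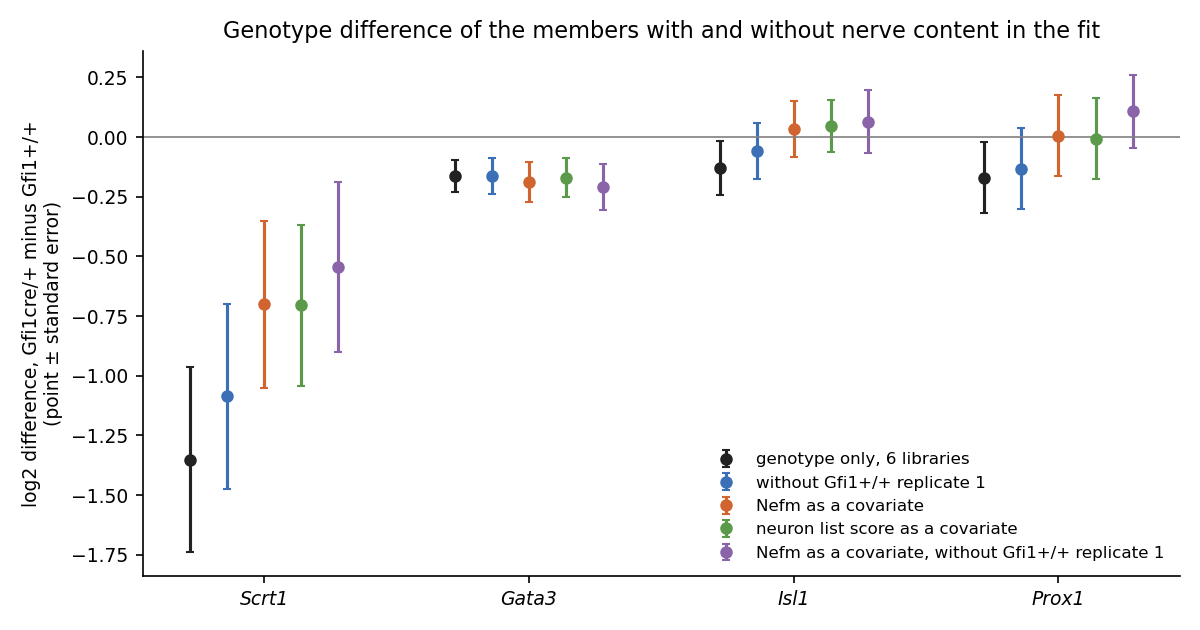
Log2 difference, Gfi1cre/+ minus Gfi1+/+ (y axis, point and standard error), of the 4 members (x axis) in 5 fits (colours): genotype alone, without Gfi1+/+ replicate 1, with Nefm or the neuron list score as a covariate, and with Nefm but without that library. Scrt1 moved from -1.35 to between -0.71 and -0.55 with a nerve covariate, Gata3 stayed between -0.21 and -0.16, and Isl1 and Prox1 lay between -0.01 and 0.11 with a nerve covariate.

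Nerve content was also tracked with a list of 28 neuron genes outside the members, of which 27 were tested and Scn9a was below the minimum. Among them 26 were lower and 1 higher in Gfi1cre/+, with a median log2 difference of -0.75 beside -0.00 over all genes tested, and it was -0.18 without Gfi1+/+ replicate 1. At an unadjusted limma p under 0.05, 8 were lower and none higher, where 3.04% of all genes passed in either direction. No neuron gene passed the adjustment with limma, edgeR's quasi-likelihood test or DESeq2. Those with the lowest unadjusted p were the neurofilament genes Ina (log2 difference -1.38, SE 0.454) and Nefh (-1.37, SE 0.473), then Snap25 (-1.22, SE 0.472), a SNARE protein of synaptic vesicle release, Syn1 (-1.28, SE 0.504), a synaptic vesicle protein, and Nefm. The summed level of the list was 21934, 13207 and 10741 normalized reads in Gfi1+/+ and 10137, 10794 and 11184 in Gfi1cre/+, so the genotypes overlapped and the excess lay in Gfi1+/+ replicates 1 and 2, the libraries with the most Scrt1. The part of nerve content in the differences of the members was not tested beyond the covariate fits.

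Each member's likeness to the 27 neuron genes differed in degree. The median r over those genes was 0.82 for Scrt1, 0.73 for Isl1, 0.68 for Prox1 and 0.43 for Gata3, beside medians within 0.01 of 0 over all genes. With markers of HCs the medians were 0.34 for Scrt1, 0.33 for Gata3, -0.00 for Isl1 and -0.04 for Prox1. The 23 HC markers tested had a median log2 difference of -0.11, with 19 lower in Gfi1cre/+, where 7237 of the 14455 genes tested were lower. None passed the adjustment with limma, edgeR or DESeq2, and 1, Pvalb, a calcium buffer that spiral ganglion neurons also express, had an unadjusted p under 0.05, which 3.04% of all genes had (log2 difference -0.47, SE 0.132). Among lists of other cell types, the median log2 difference was -0.01 for 18 supporting cell markers and -0.09 for the 3 of 12 T cell and innate lymphoid markers tested. It was -0.13 for 14 Schwann cell and satellite glia markers and 0.05 for 13 macrophage markers. None of these markers passed the adjustment with limma, edgeR or DESeq2, and at an unadjusted limma p under 0.05 there was 1, Cd4, lower in Gfi1cre/+. Among themselves, Scrt1, Isl1 and Prox1 had r between 0.77 and 0.83, whereas Gata3 had 0.61 with Scrt1, 0.50 with Isl1 and 0.21 with Prox1.

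Levels can be set side by side only per kilobase of annotated exon. On that scale Gata3 had 783 ± 35.1 normalized reads per kilobase in Gfi1+/+ and 700.4 ± 49.0 in Gfi1cre/+ (SD, n = 3 each). Isl1 followed with 219 ± 34.8 and 198 ± 14. Prox1 had 15.7 ± 2.11 and 13.95 ± 1.97, and Scrt1 had 13.8 ± 5.89 and 5.02 ± 1.43. Prox1 and Scrt1 did not differ beyond their spread in Gfi1+/+, where Scrt1 ran from 7.22 to 18.6 per kilobase and Prox1 from 13.3 to 17.3, and Scrt1 was the lower of the pair in every Gfi1cre/+ library, at 3.38 to 5.88 against 12.0 to 16.0. Gata3 stood above 92.3% of the genes tested in Gfi1+/+ and Isl1 above 70.0%, whereas Prox1 stood above 8.46% and Scrt1 above 7.08%.

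The genes whose log2 levels followed a member most closely over the 6 libraries, among those averaging 40 normalized reads or more, had r that rounds to 0.98 or 0.99. For Scrt1 they were Brinp1 (r = 0.99), a neuronal gene whose product restrains cell division, Gm20033 (0.99) and Ugcg (0.99), the enzyme that makes glucosylceramide. Brinp1 had 143, 125 and 90.7 normalized reads in Gfi1+/+ and 65.3, 88.8 and 81.1 in Gfi1cre/+. Its ranges did not overlap, but it was picked for its likeness to Scrt1, so nothing is read from that. For Isl1 they were Cers6, a ceramide synthase (0.99), Pfdn2, a prefoldin subunit (0.99), and Nek1, a kinase (0.99). For Prox1 they were Tfb1m, a mitochondrial rRNA methyltransferase (0.99), Faf1 (0.98) and Rasgrf2, a Ras exchange factor of neurons (0.98). For Gata3 they were Stra13 (0.99), Cdkal1, a tRNA-modifying enzyme (0.98), and Mpv17l2 (0.98). Each ranking took the highest of 13918 genes over 6 points, so these values describe the 6 libraries only.

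A list of 48 other neuronal and inner ear transcription factors placed the members beside their class. Of the 48, 31 had a row and all 31 were tested. None passed the adjustment with limma, edgeR or DESeq2, the smallest adjusted limma p being 0.999. By sign, 15 were higher and 16 lower in Gfi1cre/+, with a median log2 difference of -0.00, the same as over all genes tested, and the differences ran from -1.04 (Scrt2) to 0.19 (Dlx5). At an unadjusted p under 0.05, 2 of the 31 were lower and none higher, Scrt2 and Sox11, where 3.04% of all genes passed in either direction. Sox11, a factor of immature neurons, had 609, 626 and 574 normalized reads in Gfi1+/+ and 522, 527 and 533 in Gfi1cre/+, with ranges apart and a log2 difference of -0.19 (SE 0.0615). Ranges were also apart, lower, in Runx1, a factor of sensory neurons and blood cells, and, higher, in Hmx2, a homeodomain factor of the inner ear; 2 lower and 1 higher of 31 set beside the shares of 4.07% and 3.45% over all genes. Isl2, the paralogue of Isl1, had 214, 221 and 188 normalized reads in Gfi1+/+ and 214, 217 and 230 in Gfi1cre/+, and was chosen for mention after its values were seen.

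**Figure D5:**
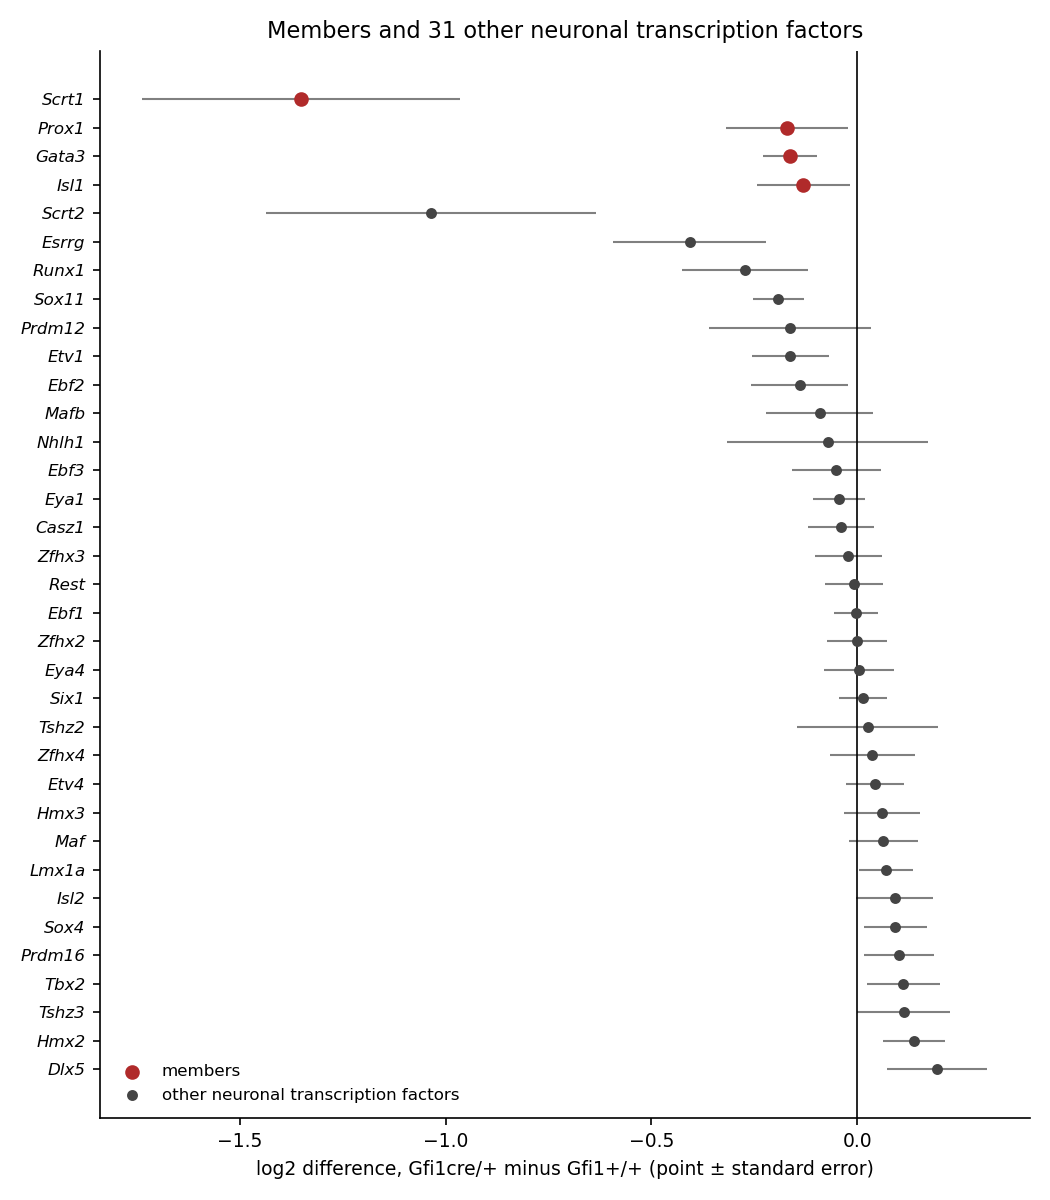
Log2 difference, Gfi1cre/+ minus Gfi1+/+ (x axis, point and standard error), of the 4 members and of the 31 other neuronal and inner ear transcription factors tested (y axis). Scrt1 at -1.35 and Scrt2 at -1.04 lie apart from the rest, which run from -0.41 to 0.19.

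The promoters of Isl1 and Gata3 are shown because the members were picked as genes GFI1 could repress, and the core of the GFI1 motif is AATC. They are the 250 bases before and the 50 after the annotated start, from RefSeq on GRCm38.p6, written 5′ to 3′ on the minus strand, with each AATC (or GATT, the same letters on the other strand) in capitals. Isl1 is at chr13:116309639-116309938 and Gata3 at chr2:9878551-9878850.
Isl1: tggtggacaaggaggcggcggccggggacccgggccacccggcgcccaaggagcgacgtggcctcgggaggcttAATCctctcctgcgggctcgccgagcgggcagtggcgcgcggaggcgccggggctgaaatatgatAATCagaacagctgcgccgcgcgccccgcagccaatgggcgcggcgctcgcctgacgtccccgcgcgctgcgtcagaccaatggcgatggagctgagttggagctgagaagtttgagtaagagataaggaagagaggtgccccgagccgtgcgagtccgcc
Gata3: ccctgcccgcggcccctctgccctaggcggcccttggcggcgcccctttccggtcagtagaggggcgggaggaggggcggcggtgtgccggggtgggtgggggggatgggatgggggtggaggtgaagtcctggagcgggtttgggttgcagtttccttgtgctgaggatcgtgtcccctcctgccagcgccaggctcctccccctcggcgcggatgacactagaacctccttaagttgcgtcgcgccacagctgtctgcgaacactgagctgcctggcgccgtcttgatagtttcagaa
The Isl1 promoter held 2 matches to AATC and the Gata3 promoter none. That Gata3 window lies inside the GENCODE span of the gene, whose upstream end, at 9890034, was not searched. Prox1 had 2 annotated promoters, with 2 matches and 1, while that of Neurod1 held 1 and that of Pou4f1 none. The 3′ ends of the Prox1 windows were not found in its GENCODE transcripts, and the first window lies outside the GENCODE span of the gene. On either strand AATC occurred in 73.1% of the 32851 promoters searched, so most promoters have a match. The longer AATCAC, which contains AATC, was in 10.4% of all promoters and in none of the 6 promoters of members searched, which include those of Pou4f1 and Neurod1. CAGGTG, an E-box of Snail and Scratch proteins, was in 20.2% of all promoters and, among these 6, in that of Pou4f1 alone, and the general E-box CANNTG, which includes CAGGTG, was in 72.3% of all promoters and in 5 of these 6, all but the second promoter of Prox1. A match is a description of letters, not of binding, and its absence says only that the letters are not in the window. Scrt1 and Insm1 had no entry among the promoters.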

How the data were processed

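RNA-seq was made by the authors from polyA RNA with the TruSeq kit, aligned to mm10 with TopHat, and counted on genes with HTSeq from uniquely mapped reads. Software versions, annotation and strand setting were not given in the sources used here. The deposited signal is 1 normalized value per gene and library, described by the authors as quantile-normalized, but over 99.99% of values were whole multiples of 1 step per library (tolerance 0.0051), so each value is whole reads over 1 factor per library. These were used as normalized reads. Genes that reached 40 normalized reads in 1 or more libraries were tested, on log2(normalized reads + 1), with limma 3.58.1 (lmFit, eBayes with a trend) in R 4.3.3, genotype the only term, two-sided, with Benjamini-Hochberg adjustment over 14455 genes. This scale understates the change of low genes. The replicates were separate samples per the labels.

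The members and gene lists were chosen with earlier results of these data known. The genes named are the members, Gfi1, Nefm, the SNAG repressors, the 3 genes most correlated with each member and up to 5 per list with the lowest unadjusted p under 0.05 under this rule. Tubb3, the central nervous tissue genes, and genes at the end of a range or with ranges apart were chosen after their values were seen. Alternatives were pseudocounts of 0.1 and 10, other minima, quantile and TMM scaling, edgeR 4.0.16 and DESeq2 1.42.0 on recovered read counts, a replicate block, Nefm or the neuron list score as a covariate, and each library left out; Nefm as a covariate without Gfi1+/+ replicate 1 was added after the data were seen. Exon lengths and positions came from GENCODE M21. The steps were tested on simulated data with changes only in genes of higher mean levels than Scrt1, Scrt2 or Prox1. That test does not cover genes as low as these. A sequence and a gene of the lists are not reported here.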

Additional observations from a re-analysis of the deposited data

How the results depend on the processing

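The count of genes past an adjusted p of 0.05 was 4 with limma, 10 with DESeq2, and 0 to 48 when 1 library was left out: 8 without Gfi1+/+ replicate 2, 48 without Gfi1+/+ replicate 3 and 0 without Gfi1cre/+ replicate 3 (248 genes then had an unadjusted p under 0.05, against 439 with all libraries). The log2 difference of Scrt1, -1.35 with genotype alone, was -0.70 with Nefm as a covariate, -0.71 with the neuron list score, and -0.55 with Nefm in the 5 libraries other than Gfi1+/+ replicate 1, and it ran from -1.75 to -1.09 with 1 library left out. In that fit of 5 libraries Isl1 was 0.064 and Prox1 0.11. The median of the neuron list, -0.75, was 0.01 with Nefm and -0.01 with the list's own score as the covariate; the score is the mean of the same genes, so a median near 0 is set by construction there, and Nefm is itself of the list. Pseudocounts, minima, quantile normalization, TMM, edgeR and DESeq2 left all 4 members lower in Gfi1cre/+.

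Same-numbered libraries of the genotypes had deviations with r of -0.09, 0.11 and -0.03, so the numbers were not taken as pairs. With a replicate block the log2 difference of Scrt1 was -1.35 (SE 0.409), and 4 genes were called. Depth limits Scrt1 most: its 17 to 66 reads per library leave wide intervals, and 3 libraries per genotype, 1 of them with central nervous tissue markers, limit all differences.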
